A study of Mus musculus with 18 samples.

Results

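The knock-in of a long glutamine tract into the Cav2.1 calcium channel (118Q) and the Ctm knockout, another altered mouse line of the same spinocerebellar ataxia type 6 study, were set against each other gene by gene. The quantity described is a difference of differences: the 118Q effect (118Q knock-in minus its wild-type littermates) minus the Ctm effect (Ctm knockout minus its wild-type littermates). It rests on 12 of the 18 arrays of the series, 3 in each of 4 groups: homozygous MPI 118Q knock-in mice, their wild-type littermates, homozygous Sca6 CtmKO mice and their wild-type littermates. All were C57BL/6 mice, and total RNA of the cerebellum was hybridised to Affymetrix mouse arrays. An age of 6 weeks is given for the 118Q knock-in and CtmKO mice, and the labels used here state none for the wild types. The remaining 6 arrays, homozygous MPI 11Q knock-in mice and their wild types, entered the estimate of the spread, and the 11Q wild types served as the outside reference that shows which of the 4 groups stood apart. The labels do not spell out Ctm or MPI, and do not say whether arrays of a group came from separate litters, so p-values measure the spread between these arrays.

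Cav2.1 is the P/Q-type voltage-gated calcium channel, whose pore-forming subunit is encoded by Cacna1a. In the cerebellum it carries most of the calcium current of Purkinje cells, the only output neurons of the cerebellar cortex, and it triggers transmitter release at many synapses. Expansion of a CAG repeat in the last exon of Cacna1a, which lengthens a glutamine tract at the end of the protein, causes spinocerebellar ataxia type 6, a disease in which Purkinje cells are lost.

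Expression is given on the log2 scale, with 1 probe set for each of 18193 genes. Array medians lay between 2.38 and 2.55, and correlations across genes between pairs of arrays between 0.981 and 0.996. The mean level of 14 granule cell markers was 8.68 to 9.07 in the 4 groups, against 1.42 to 1.63 for 12 markers of hindbrain outside the cerebellum. RNA quality was gauged from the array's own Gapdh and beta-actin probe sets, as the excess of their 3' over their 5' signal (log2). This excess was 0.41 to 0.47 in 118Q knock-ins and 0.50 to 0.71 on the other 9 arrays, without overlap. The mean of 12 choroid plexus markers ranged widely inside each of the 4 groups, from 2.68 to 6.31 in 118Q wild types and from 2.54 to 5.67 in Ctm knockouts, but only from 5.47 to 5.90 in the 11Q wild types. Cacna1a itself read 5.62, 5.79 and 5.52 in 118Q knock-ins, 6.04, 5.51 and 6.25 in their wild types, 6.21, 6.04 and 5.87 in Ctm knockouts and 6.02, 6.14 and 6.14 in Ctm wild types. The groups overlapped in both lines and the difference of -0.23 (SE 0.21) did not pass the test (limma, adjusted p = 0.605). The position of its probes within the gene was not examined here, so this probe set is no check on the labels.

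The difference passed the test for 533 genes, 2.93% of those tested. It was positive for 335 (1.84%), where the 118Q effect lay above the Ctm effect, and negative for 198 (1.09%). Microglial and ribosomal protein genes were among the positive genes, mostly through high 118Q knock-ins. Purkinje cell markers were among the negative ones, 2 of the 4 called assigned to low 118Q knock-ins, and 103 of the 198 negative genes were assigned to low Ctm wild types. The smallest adjusted p was 0.00514, for Cenpb. Counts depended on single arrays: without array 3 of the Ctm wild types 24 genes were called, without arrays 1 or 3 of the 118Q wild types 272 or 75, without array 1, 2 or 3 of the 118Q knock-ins 1021, 156 or 89, without array 2 of the Ctm wild types 347, and without array 1, 2 or 3 of the Ctm knockouts 98, 145 or 172. With the 12 arrays fitted alone, and so with fewer degrees of freedom for the spread, 81 genes were called, and with the RNA quality measure as a covariate 67. Of the 63 called genes named in the text by rule, 12 kept the call whichever array was left out: Cenpb, Cyba, Eea1, Enho, Fgf14, Ftx, Gadd45gip1, Mrpl57, S100a1, Smg1, Taf15 and Unc80. The other 51 lost it at least without array 3 of the Ctm wild types.

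**Figure D1:**
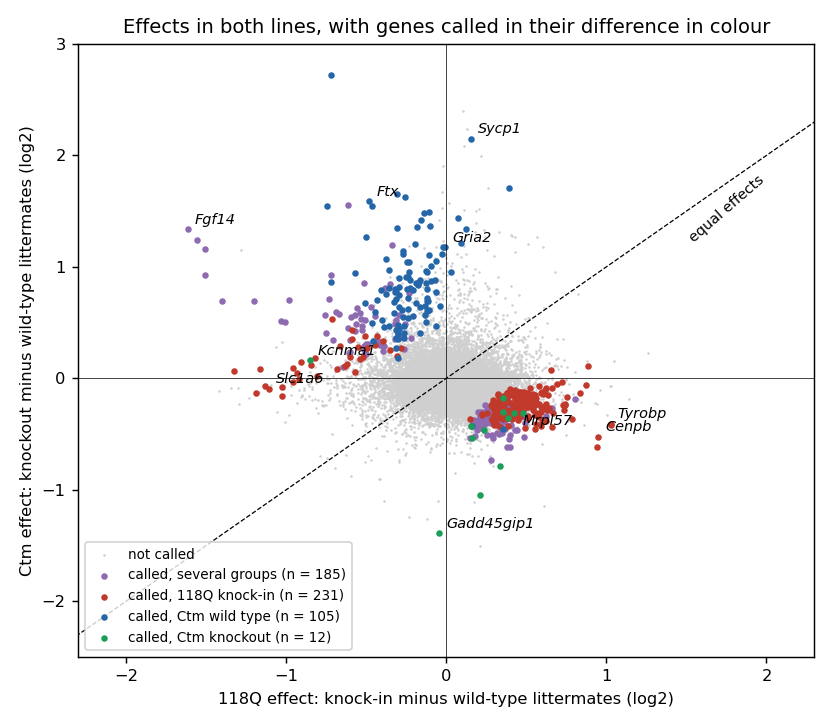
Each point is a gene, with the 118Q effect on the horizontal axis and the Ctm effect on the vertical axis (both log2, mutant minus wild-type littermates, 3 arrays per group). Colours mark the 533 genes whose effects differ, by the group that stood apart from the 11Q wild types: 231 for the 118Q knock-ins lie to the right and left of the centre, 105 for the Ctm wild types lie mostly above it, and the dashed line marks equal effects.

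Most of these genes had effects of opposite sign in the 2 lines, which choosing genes on the difference itself favours. The share of opposite signs over all genes tested was not counted, so the signs are a description of the called genes. The 118Q effect passed the test for 280 genes (1.54%), 147 up (0.808%) and 133 down (0.731%), and the Ctm effect for 169 (0.929%), 152 up (0.835%) and 17 down (0.0934%). Of the 533 genes, 145 had only the 118Q effect called, 96 only the Ctm effect, and 290 neither, all 290 of them with opposite signs. The 2 genes with both effects called were Mrpl57 and the predicted locus 4932438A13Rik, named because they are so few. Mrpl57, a protein of the mitochondrial ribosome, read 6.60, 6.64 and 6.62 in 118Q knock-ins, 6.03, 6.20 and 6.34 in their wild types, 5.95, 5.83 and 5.87 in Ctm knockouts and 6.37, 6.17 and 6.51 in Ctm wild types. It was above its wild types on every 118Q knock-in array and below them on every Ctm knockout array. Its 118Q effect was 0.43 (adjusted p = 0.047), its Ctm effect -0.47 (adjusted p = 0.0388), and the difference 0.90 (SE 0.15, adjusted p = 0.0145). A second, dimmer probe set of Mrpl57 gave a difference of 0.22 that was not called, from a 118Q effect of 0.07 and a Ctm effect of -0.16. The effect counts moved with single arrays too. The 118Q effect was called for 68 or 2 genes without array 1 or 3 of its wild types, for 941, 7 or 3 without knock-in array 1, 2 or 3, and, through the pooled spread, for 174 or 139 without Ctm knockout array 1 or 2. The Ctm effect was called for 447, 41 or 1 without array 1, 2 or 3 of its wild types and for 7, 24 or 33 without knockout array 1, 2 or 3.

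To tell which group a difference came from, each group's distance from the 11Q wild-type mean was taken. The 4 distances, with the sign they have in the contrast, sum to the difference, and a gene was assigned to a group that supplied at least 50% of it and led the next group by at least 25% of it. By this description 231 of the 533 genes (43.3%) were assigned to the 118Q knock-ins, 196 positive and 35 negative. The Ctm wild types took 105 (19.7%), 103 of them negative, the Ctm knockouts 12 (2.25%) and the 118Q wild types 0. The remaining 185 (34.7%) were shared by several groups: 68 positive genes by high 118Q knock-ins and low Ctm knockouts, 51 negative genes by low 118Q knock-ins and low Ctm wild types, and 43 positive genes by high 118Q knock-ins and high Ctm wild types. Against the mean of the other 3 groups instead of the 11Q wild types, 97 genes were assigned to the 118Q knock-ins, 63 to the Ctm wild types and 361 to several. Leaving out single arrays moved the number assigned to the 118Q knock-ins between 8 and 628 and that of the Ctm wild types between 4 and 293, the low ends without Ctm wild-type array 3 and the high ends without 118Q knock-in array 1 and Ctm wild-type array 1.

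Each group was also tested against the 11Q wild types in the same fit. The Ctm wild types differed for 2250 genes (12.4%), 987 up (5.43%) and 1263 down (6.94%), the 118Q knock-ins for 1474 (8.1%), 939 up (5.16%) and 535 down (2.94%), and the Ctm knockouts for 722 (3.97%), 236 up (1.3%) and 486 down (2.67%). The 118Q wild types differed for 0 genes (0%) in this limma fit, with 753 at an unadjusted p below 0.05, 1 with trend and robust settings and 2 with array weights. The difference of differences was then formed with a group replaced by the 11Q wild types, a step chosen after the data were seen. With the 118Q knock-ins replaced, 1 gene was called (0.0055%), with the 118Q wild types replaced 1593 (8.76%), with the Ctm knockouts replaced 1662 (9.14%) and with the Ctm wild types replaced 490 (2.69%). These contrasts share arrays with each other and with the main difference, so their counts are a description.

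**Figure D2:**
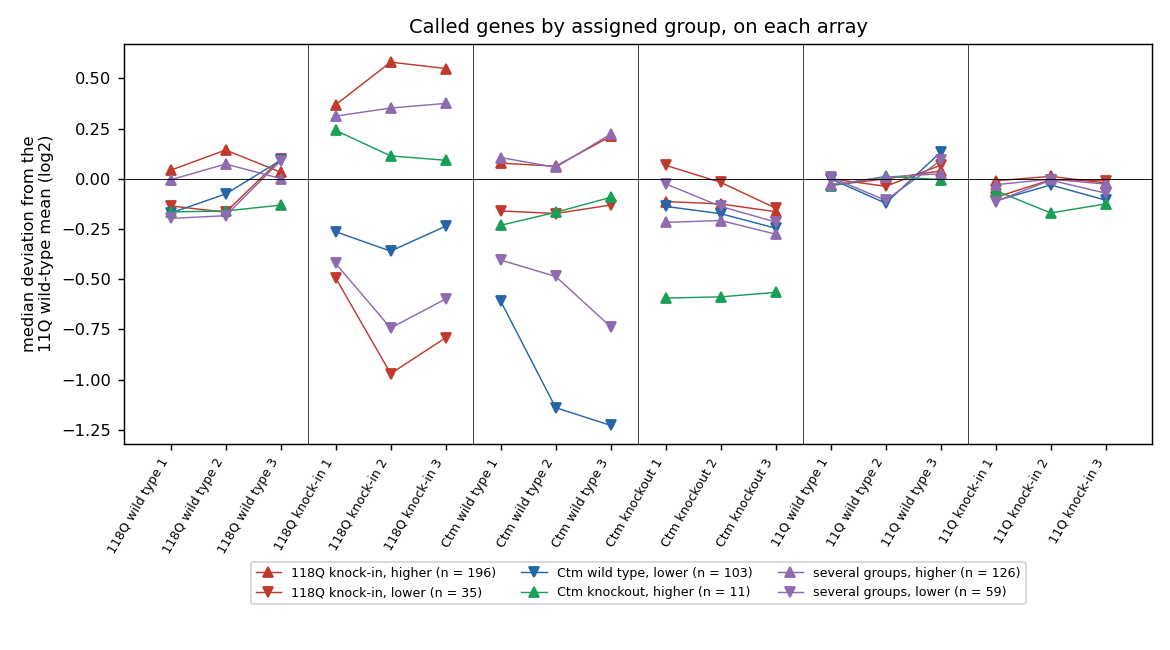
Median distance from the 11Q wild-type mean (log2, vertical axis) on each of the 18 arrays for 6 sets of called genes, grouped by the sign of their difference and by the group they were assigned to. The sets were chosen on the first 4 groups. The 103 negative genes assigned to the Ctm wild types reach -0.61, -1.14 and -1.23 on Ctm wild-type arrays 1 to 3, so arrays 2 and 3 are lower than array 1.

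Positive genes assigned to the 118Q knock-ins included Cenpb, which encodes the centromere protein that binds the CENP-B box and had the smallest p of the difference, and genes of microglia. Cenpb read 6.02, 6.09 and 6.35 in 118Q knock-ins, 5.16, 5.52 and 4.95 in their wild types, 4.97, 5.12 and 5.40 in Ctm wild types and 4.53, 4.74 and 4.65 in Ctm knockouts. All 3 knock-in arrays lay above every other array, and all 3 Ctm knockout arrays lay below. Its difference was 1.47 (SE 0.19, adjusted p = 0.00514), of which the 118Q effect was 0.95 and the Ctm effect -0.52. Its second, dim probe set gave 0.18.

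Of 19 measured microglial markers 7 were positive in the difference and 0 negative (36.8% called, against 2.93% of all genes), with a median of 0.73 against 0.09 for all genes. The 7 calls depended on single arrays: 0 were left without array 3 of the Ctm wild types, 4 or 1 without array 1 or 3 of the 118Q wild types, 2 without array 3 of the 118Q knock-ins, and 1, 2 or 3 without array 1, 2 or 3 of the Ctm knockouts. The list's median distance from the 11Q wild types was 0.64 in 118Q knock-ins, 0.19 in their wild types, 0.29 in Ctm wild types and 0.06 in Ctm knockouts. Tyrobp, the signalling adaptor of several myeloid receptors, read 6.10, 5.29 and 5.80 in 118Q knock-ins and 4.54, 5.01 and 4.56 in their wild types, with 4.57, 4.49 and 4.41 in Ctm knockouts and 5.01, 4.73 and 4.96 in Ctm wild types. The knock-in arrays were the highest 3 of the 12, with array 1 at the top. Its difference was 1.44 (SE 0.25, adjusted p = 0.0145). Trem2, the receptor that signals through Tyrobp, read 4.19, 3.87 and 3.95 in 118Q knock-ins and 3.04, 3.31 and 3.00 in their wild types, and 3.15, 3.16 and 3.31 in Ctm knockouts and 3.19, 2.98 and 3.12 in Ctm wild types. The other 3 groups lay within 2.98 to 3.31, below all knock-in arrays. The difference in Trem2 was 0.78 (SE 0.15, adjusted p = 0.019), from a 118Q effect of 0.89 and a Ctm effect of 0.11.

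Cd68, a lysosomal glycoprotein of phagocytes, differed by 1.45 (SE 0.32, adjusted p = 0.028), with 3.84, 2.93 and 3.43 in 118Q knock-ins, 2.12 to 2.78 in their wild types and 1.76 to 2.50 in the Ctm line. C1qb, a chain of the first complement component, differed by 1.10 (adjusted p = 0.0293), with 6.03, 5.41 and 5.76 in 118Q knock-ins, 4.75 to 5.33 in their wild types and 4.49 to 5.19 in the Ctm line. Dimmer probe sets of C1qb gave differences of 0.87 and 0.07, neither called. Their 118Q effects were 0.05 and 0.04 and their Ctm effects -0.83 and -0.04. The other called members, named after their values were seen, were C1qa (1.01), Cd52 (0.93) and Laptm5 (0.81), the last shared by several groups. Not every marker moved: the difference was -0.03 (SE 0.26) for P2ry12, 0.31 (SE 0.23) for Tmem119 and -0.10 (SE 0.26) for Csf1r, none past the test. In whole tissue more cells of a type and more RNA per cell cannot be told apart.

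Further genes assigned to the 118Q knock-ins included other myeloid and calcium-binding protein genes. Cyba, a membrane subunit of the phagocyte NADPH oxidase, differed by 0.98 (SE 0.15, adjusted p = 0.0145) and read 4.14 to 4.27 in 118Q knock-ins, 3.56 to 3.71 in their wild types and 2.92 to 3.71 in the Ctm line. S100a1, a calcium-binding protein, read 7.24, 7.66 and 7.44 in 118Q knock-ins against 6.78, 6.87 and 6.33 in their wild types and 6.26 to 6.80 in the Ctm line. The knock-ins were again the highest 3 arrays and the difference was 1.16 (SE 0.19, adjusted p = 0.0145). S100a8, a calcium-binding protein abundant in neutrophils, had the largest positive difference among named genes, 1.55 (SE 0.41, adjusted p = 0.0476), but its array 3 of the 118Q wild types, at 3.34, lay inside the knock-in range of 3.26 to 3.83. Enho, which encodes the secreted peptide adropin, differed by 0.94 (SE 0.15, adjusted p = 0.0145).

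Among the lists, ribosomal proteins held the most positive genes. Of 48 cytosolic ribosomal protein genes 14 were positive and 0 negative (29.2%), with a median of 0.47, and 47 of the 48 had a positive value, as had 11460 of all 18193 genes. Without single arrays the count ran from 0 (array 3 of the Ctm wild types) to 27 (array 1 of the 118Q knock-ins), and it was 2 or 3 without array 1 or 3 of the 118Q wild types, array 2 or 3 of the 118Q knock-ins or any Ctm knockout array, 6 without array 2 of the Ctm wild types and 9 without array 2 of the 118Q wild types. The median distance from the 11Q wild types was 0.40 in 118Q knock-ins, 0.08 in their wild types, -0.04 in Ctm knockouts and 0.11 in the wild types of the Ctm line, and 12 of the 14 were assigned to the 118Q knock-ins. Rps18, of the small subunit, read 8.95, 9.32 and 9.24 in 118Q knock-ins, 8.44, 8.60 and 8.58 in their wild types, 8.62, 8.57 and 8.66 in Ctm wild types and 8.52, 8.47 and 8.41 in Ctm knockouts. The knock-ins did not overlap any other group and the difference was 0.78 (SE 0.14, adjusted p = 0.0145). Rps27, also of the small subunit, differed by 0.71 (SE 0.14, adjusted p = 0.0172), with 4.33, 4.34 and 4.15 in 118Q knock-ins and 3.29 to 3.68 on the other 9 arrays. Rpl41, of the large subunit, differed by 0.80 (SE 0.16, adjusted p = 0.022). Ribosomal protein genes have near-identical processed copies in the genome, and the probe sets of Rps18 ranged from -0.07 to 0.78 in their difference, so the values may mix copies.

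The mitochondrial ribosome showed the same sign with a larger Ctm share. Of 76 genes 12 were positive and 0 negative (15.8%), 75 had a positive value, and the median was 0.39. The count ran from 1 without array 3 of the Ctm wild types to 24 without array 1 of the 118Q knock-ins, with 5 or 2 without array 1 or 3 of the 118Q wild types and 2 to 4 without array 2 or 3 of the 118Q knock-ins or any Ctm knockout array. Here the list stood 0.26 above the 11Q wild types in 118Q knock-ins and 0.20 below them in Ctm knockouts (median -0.20), with 0.07 in 118Q wild types and 0.02 in Ctm wild types. Of the 12 called genes 7 were assigned to the 118Q knock-ins and 5 to several groups. Mrps7 read 6.27, 6.47 and 6.35 in 118Q knock-ins and 5.94, 6.05 and 6.10 in their wild types, and 5.73, 5.66 and 5.64 in Ctm knockouts and 5.91, 5.96 and 6.12 in Ctm wild types. As in Mrpl57, the 118Q knock-ins were highest and the Ctm knockouts lowest, with neither pair overlapping, and the difference was 0.66 (SE 0.13, adjusted p = 0.0195). Mrpl4 differed by 0.69 (SE 0.14, adjusted p = 0.0239).

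Related lists were called to different extents. Oxidative phosphorylation had 2 of 27 positive (7.41%, median 0.32): Sdhb, the iron-sulfur subunit of complex II, at 0.52 (adjusted p = 0.0354) and Ndufs4, of complex I, at 0.57 (adjusted p = 0.0492). Of 39 proteasome subunits 2 were positive (5.13%, median 0.15), Psmb6 at 0.49 (adjusted p = 0.0475) and Psmb10, a subunit of the immunoproteasome, at 0.66 (adjusted p = 0.039). Of 14 host genes of small nucleolar RNAs 3 were positive and 1 negative (28.6%, median 0.38). Snhg3 read 4.11, 4.24 and 4.36 in 118Q knock-ins and 3.42 to 3.84 on the other 9 arrays, a difference of 0.71 (SE 0.17, adjusted p = 0.0352), and Snhg10 differed by 0.74 (SE 0.16, adjusted p = 0.0285). Snhg14 went the other way and is described with the genes shared by several groups.

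The promoters of the ribosomal genes are shown because these genes moved together. In the 250 bases before the start, 8 motifs were searched on both strands. These were CGGAAG, the core of sites for ETS factors, the longer forms CCGGAAGT and also CTTCCGG, which overlap it on either strand, then GAGGAAG with its longer form GAGGAAGT, the TATA box as TATAAA, the CCAAT box and the cyclic AMP element TGACGTCA. The first motif, singled out after all shares were seen, was held by 29.4% of promoters of positive genes, 20.6% of those of negative genes and 20% of all 14452 genes with a promoter sequence. Among ribosomal genes of both kinds it was held by 14 of 25 called (56%) and 39 of 84 not called (46.4%), and these shares were not tested against each other. The promoter of Rps18, at chr17:33955666-33955915 on the minus strand, held it 4 times, and that of Eea1, the gene with the smallest adjusted p among those assigned to the Ctm wild types, at chr10:95940413-95940662 on the plus strand, 2 times (RefSeq, GRCm38.p6, 5′ to 3′, matches to CGGAAG or its reverse CTTCCG in capitals). A match is a description of letters and not a site.
Rps18: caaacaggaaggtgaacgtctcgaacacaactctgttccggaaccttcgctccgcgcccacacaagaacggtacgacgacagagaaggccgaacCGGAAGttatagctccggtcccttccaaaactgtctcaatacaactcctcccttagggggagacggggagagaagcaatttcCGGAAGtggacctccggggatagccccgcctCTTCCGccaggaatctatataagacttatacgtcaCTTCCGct
Eea1: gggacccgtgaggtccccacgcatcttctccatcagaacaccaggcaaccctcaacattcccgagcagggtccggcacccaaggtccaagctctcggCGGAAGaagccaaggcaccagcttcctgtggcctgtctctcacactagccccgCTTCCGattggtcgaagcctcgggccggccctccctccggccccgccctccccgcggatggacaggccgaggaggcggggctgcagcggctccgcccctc

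On the negative side, genes assigned to the 118Q knock-ins included markers of Purkinje cells. Of 16 measured Purkinje markers 4 were negative and 0 positive (25%), with a median difference of -0.67, and 15 of the 16 had a negative value, as had 6733 of all 18193 genes. The 4 calls became 10 without array 1 of the 118Q knock-ins. They fell to 0 without array 3 of the 118Q wild types, array 2 or 3 of the 118Q knock-ins, array 2 or 3 of the Ctm wild types, or array 1 or 2 of the Ctm knockouts, and to 1 or 2 without Ctm knockout array 3, 118Q wild-type array 2 or Ctm wild-type array 1. The list's median distance from the 11Q wild types was -0.49 in 118Q knock-ins and 0.09, 0.09 and 0.12 in 118Q wild types, Ctm knockouts and Ctm wild types. The mean level of the list was 8.15, 7.54 and 7.76 on 118Q knock-in arrays 1 to 3 and 8.29 to 8.45 on the other 9 arrays, so array 1 was the least affected. Slc1a6, the glutamate transporter of Purkinje cells, read 7.65, 6.57 and 6.88 in 118Q knock-ins, 8.21, 8.07 and 8.14 in their wild types, 8.40, 8.37 and 8.35 in Ctm knockouts and 8.32, 8.46 and 8.62 in Ctm wild types. All knock-in arrays lay below all others, and the difference of -1.01 (SE 0.25, adjusted p = 0.039) was carried by the 118Q effect of -1.11, beside a Ctm effect of -0.09.

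Stk17b, a serine/threonine kinase, read 6.81, 6.35 and 6.59 in 118Q knock-ins and 7.33, 7.53 and 7.78 in their wild types, with 6.93 to 7.33 in the Ctm line. Its difference was -0.93 (SE 0.20, adjusted p = 0.0278). Plcb4, the phospholipase C downstream of the metabotropic glutamate receptor of Purkinje cells, differed by -0.71 (SE 0.16, adjusted p = 0.0317) and was shared by low 118Q knock-ins and low Ctm wild types. On its other probe sets, none of them called, the 118Q effect was -0.94 to 0.16 and the Ctm effect 0.25 to 0.54. Car8, which binds the inositol trisphosphate receptor and was named after its value was seen, differed by -0.75 (SE 0.19, adjusted p = 0.0413). Calb1, the calcium buffer of Purkinje cells, had -0.89 (SE 0.25, adjusted p = 0.0609) and Pcp2 had 0.19 (SE 0.15), neither past the test.

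Of 25 calcium signalling genes 4 were negative and 0 positive (16%, median -0.36). Beside Plcb4 and Car8 these were Atp2a2, the calcium pump of the endoplasmic reticulum, and Slc8a1, the sodium-calcium exchanger. Atp2a2 read 9.85, 9.43 and 9.57 in 118Q knock-ins and 10.36, 10.16 and 10.39 in their wild types, with 10.07 to 10.32 in the Ctm line. The knock-ins were the lowest 3 arrays, and the difference was -0.77 (SE 0.15, adjusted p = 0.0195). Slc8a1 differed by -1.59 (SE 0.29, adjusted p = 0.0145) and was assigned to the Ctm wild types, at 5.80, 5.11 and 5.09, while the 118Q knock-ins, at 6.24, 5.35 and 5.85, were also below their wild types, at 6.30 to 6.76.

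The AMPA receptor genes came from different groups. Of 21 glutamate receptor genes 3 were negative (14.3%, median -0.38). Shisa6, an auxiliary subunit of AMPA receptors, read 5.52, 4.72 and 4.64 in 118Q knock-ins and 5.94, 5.92 and 6.99 in their wild types, with 6.22 to 6.75 in the Ctm line, and its difference of -1.39 (SE 0.37) was just inside the threshold at an adjusted p of 0.05 after rounding. Gria3, an AMPA receptor subunit, differed by -1.25 (SE 0.32, adjusted p = 0.0448), with the 118Q knock-ins as the leading group. Its 118Q effect of -0.72 did not pass the test (adjusted p = 0.118), and the 118Q groups overlapped. A dimmer probe set of Gria3 had a 118Q effect of -0.27 and a Ctm effect of 0.60. Gria2, the subunit that makes AMPA receptors impermeable to calcium, had a 118Q effect of -0.01 and a Ctm effect of 1.18. It read 8.05, 7.41 and 6.91 in Ctm wild types and 8.28 to 8.76 on all other arrays of the 2 lines and of the 11Q wild types. Its difference of -1.19 (SE 0.28, adjusted p = 0.0347) thus lay in the Ctm wild types, a control group.

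Of 18 heat shock and chaperone genes 2 were negative (11.1%, median -0.25), both assigned to the 118Q knock-ins: Hsp90aa1 at -0.72 (adjusted p = 0.0453) and Hspa4, of the Hsp110 family, at -0.63 (adjusted p = 0.0362). Genes just inside the threshold were Cpeb4 at -0.76 and Scrg1 at 0.72, and just outside it Blvrb at 0.74 and Scand1 at 0.54, named after their values were seen.

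Genes assigned to the Ctm wild types were almost all negative, 103 of 105: those wild-type arrays were low and the Ctm effect was positive. Eea1, a tether of early endosomes, read 4.78, 4.63 and 4.36 in Ctm wild types, 5.45, 5.40 and 5.35 in Ctm knockouts, 5.50, 5.27 and 5.46 in 118Q knock-ins and 5.56, 5.72 and 5.65 in 118Q wild types. The Ctm wild types were the lowest 3 arrays, and the difference was -1.04 (SE 0.16, adjusted p = 0.0138). Taf15, an RNA-binding protein, differed by -1.39 (SE 0.22, adjusted p = 0.0145) with 3.21, 3.89 and 3.10 in Ctm wild types and 4.34 to 4.76 on the other 9 arrays. Both Ctm groups lay below the 11Q wild types in Taf15, so part of its distance belongs to the line. Smg1, the kinase of nonsense-mediated RNA decay, differed by -1.16 (SE 0.19), Unc80, a component of the sodium leak channel complex, by -1.45 (SE 0.24), and Jmjd1c, of a histone demethylase family, by -1.04 (SE 0.18), each with an adjusted p of 0.0145. The 118Q knock-ins also lay below the 11Q wild types, in Jmjd1c by -0.55 (adjusted p = 0.0145) and in Smg1 by -0.46 (adjusted p = 0.043). For Unc80 this distance was -0.51 (adjusted p = 0.0692). Other probe sets of Smg1 gave differences of -0.27, -0.24 and -0.33, none called.

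Several of the largest negative differences were of this kind and were uneven within the group. Sycp1, a protein of the synaptonemal complex, read 3.67, 1.28 and 1.95 in Ctm wild types and 4.24 to 4.74 on the other 9 arrays. Array 1 was much nearer to the other groups than arrays 2 and 3, and the difference was -2.00 (SE 0.51, adjusted p = 0.0433). Nbeal1 (-1.96), Zfp182 (-1.89), Atrx (-1.78), which encodes a chromatin remodeller, Gucy1a2 (-2.01), a subunit of soluble guanylyl cyclase, and Ccdc88a (-1.66), an actin-binding protein, had arrays 2 and 3 lowest as well. Atrx, for example, read 7.39, 6.05 and 6.19 in Ctm wild types and 7.76 to 7.89 in Ctm knockouts. Ftx, a noncoding RNA of the X-inactivation centre, differed by -2.07 (SE 0.36, adjusted p = 0.0145) and read 5.58, 4.87 and 4.25 in Ctm wild types. Without arrays 2 and 3 of the Ctm wild types together, an omission chosen after the data were seen, 6 genes were called in the whole difference, 0 positive and 6 negative.

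Zinc finger and RNA-binding protein lists held few called genes. Of 329 Zfp zinc finger genes 9 were negative and 4 positive, and this share of 3.95% (median 0.10) is near the 2.93% of all genes. The count ran from 0 without array 3 of the 118Q knock-ins or of the Ctm wild types to 31 without array 1 of the Ctm wild types. Of the 13 genes 8 were assigned to the Ctm wild types, among them Zfp638 at -1.11 (adjusted p = 0.0209). Zfp560 at 0.93 (adjusted p = 0.0239) and Zfp213 at 1.02 (adjusted p = 0.0376) were positive and shared by several groups. Of 19 hnRNP genes Hnrnph1 was negative (5.26%, median -0.34), at -0.73 (adjusted p = 0.0354), with 8.89, 8.51 and 8.39 in Ctm wild types. Of 10 SR splicing factors Srsf1 was negative (10%, median -0.19), at -0.75 (adjusted p = 0.0226), and shared by several groups. Its Ctm effect was 0.49 (adjusted p = 0.0383), and its 118Q effect of -0.26 did not pass the test (adjusted p = 0.247). On its other probe sets the Ctm effect was 0.04 to 0.93 and the 118Q effect -0.08 to 0.18.

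**Figure D3:**
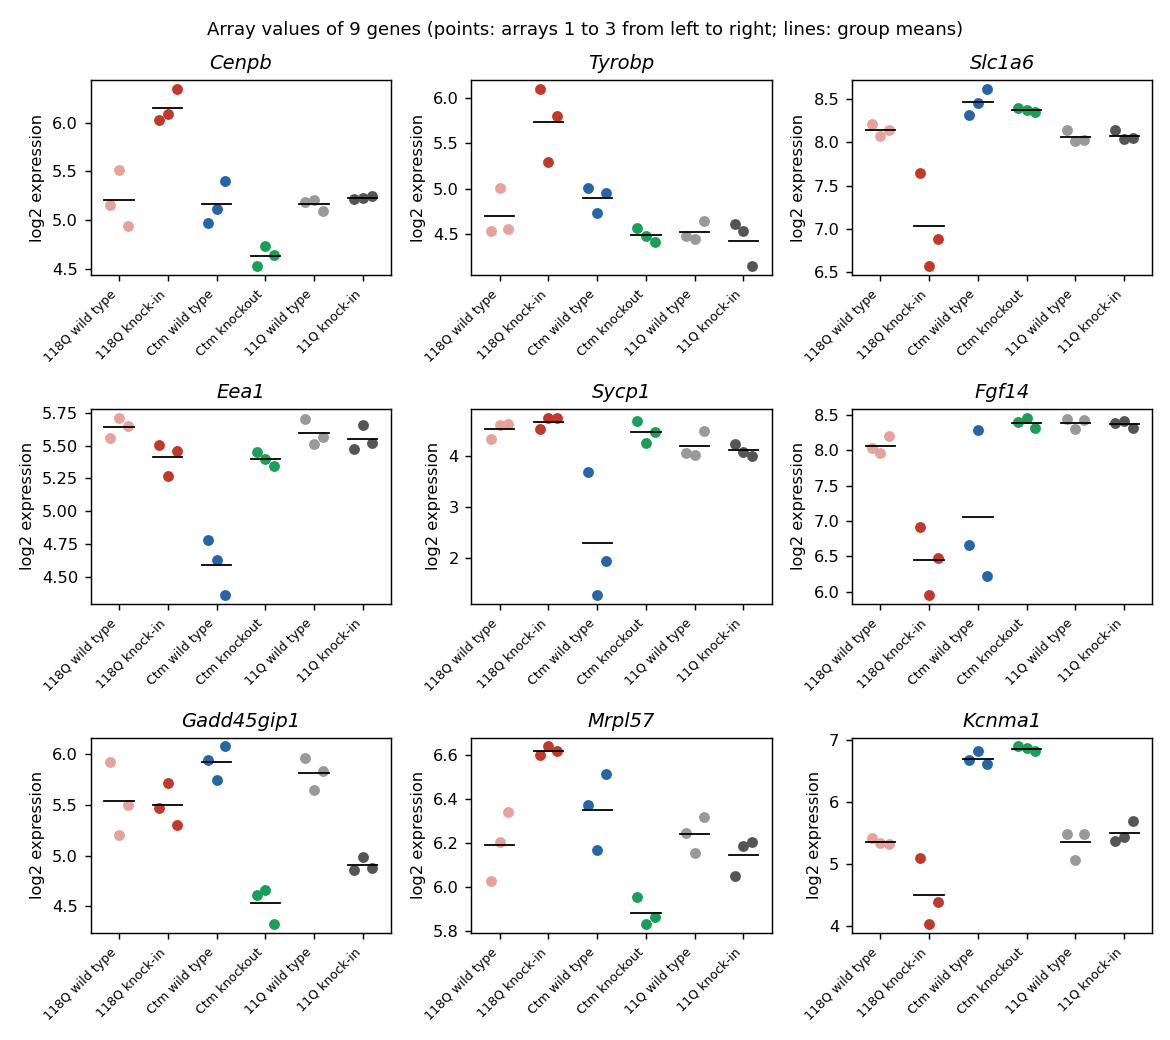
Log2 expression of 9 genes on each array (points, arrays 1 to 3 from left to right within a group) with group means (lines), vertical axes not starting at 0. Cenpb and Tyrobp stand high and Slc1a6 low in 118Q knock-ins, Eea1 and Sycp1 low in Ctm wild types, Gadd45gip1 low in Ctm knockouts, and Fgf14 low in both 118Q knock-ins and 2 of 3 Ctm wild types.

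The Ctm knockouts led in 12 genes, 11 of them positive. Gadd45gip1, a protein of the mitochondrial ribosome and partner of Gadd45 proteins, read 4.61, 4.67 and 4.33 in Ctm knockouts, 5.94, 5.75 and 6.08 in their wild types, 5.47, 5.72 and 5.30 in 118Q knock-ins and 5.92, 5.21 and 5.50 in 118Q wild types. The knockouts were the lowest 3 arrays, the Ctm effect was -1.39 and the 118Q effect -0.05, and the difference was 1.34 (SE 0.23, adjusted p = 0.0145). In 11Q knock-ins it read 4.86, 4.99 and 4.88 against 5.65 to 5.97 in 11Q wild types, an effect of -0.91 that did not pass the test (adjusted p = 0.13), and its dimmer probe set had a difference of -0.37. In the order of protein-coding genes, 6 genes lie between Gadd45gip1 and Cacna1a.

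Mri1, an enzyme of methionine salvage with 1 gene between it and Cacna1a in that order, differed by 1.12 (SE 0.25, adjusted p = 0.028). It read 3.51, 3.58 and 3.56 in Ctm knockouts, 3.96 to 4.72 in their wild types and 4.04 to 4.61 in the 118Q line. It was also low in 11Q knock-ins, at 3.43, 4.03 and 3.99 against 4.37 to 4.70 in 11Q wild types, an effect of -0.68 that did not pass the test (adjusted p = 0.742). Rasd2, a small GTPase with 64 genes between it and Cacna1a, differed by 1.26 (SE 0.32, adjusted p = 0.0413), with 3.80, 4.11 and 3.64 in Ctm knockouts. Of the 12 genes 4 (33.3%) lay on the chromosome of Cacna1a, which holds 5.17% of all genes tested. Gucd1 (0.74), Serhl (0.79) and Eef1aknmt (0.74), a methyltransferase of an elongation factor, were the other named members, with low Ctm knockouts and 118Q knock-ins above their wild types.

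Kcnma1, the pore of the large-conductance calcium-activated potassium channel, shows a limit of the assignment. It read 6.68, 6.82 and 6.61 in Ctm wild types and 6.90, 6.87 and 6.82 in Ctm knockouts, 5.43, 5.34 and 5.32 in 118Q wild types and 5.11, 4.04 and 4.39 in 118Q knock-ins. Both Ctm groups lay above the 11Q wild types, at 5.07 to 5.49, by 1.35 and 1.51, and this offset of the line gave the knockouts the largest distance. Yet on this, its brightest probe set, the 118Q effect was -0.85 and the Ctm effect 0.16. Its difference of -1.01 (SE 0.27, adjusted p = 0.0478) thus lay mostly in the 118Q pair. On its other probe sets the 118Q effect was -1.53 to -0.50 and the Ctm effect -0.19 to 0.85. Of all 5, 1 was called when every probe set was tested by itself, with a 118Q effect of -1.05 and a Ctm effect of 0.85. In 9 called genes, Kcnma1, Taf15 and Car8 among them, both Ctm groups passed the test on the same side of the 11Q wild types. For Taf15 both 118Q groups lay on that side as well.

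Among genes shared by several groups, Fgf14 had the largest difference of the named genes. Fgf14, an intracellular protein that binds voltage-gated sodium channels and is mutated in spinocerebellar ataxia type 27, read 6.92, 5.95 and 6.48 in 118Q knock-ins, 8.04, 7.96 and 8.20 in their wild types, 6.66, 8.28 and 6.22 in Ctm wild types and 8.40, 8.46 and 8.31 in Ctm knockouts. The 118Q knock-ins were low throughout, whereas in the Ctm wild types arrays 1 and 3 were low and array 2 was not. The difference was -2.95 (SE 0.47, adjusted p = 0.0145), from a 118Q effect of -1.62 (adjusted p = 0.0287) and a Ctm effect of 1.34 (adjusted p = 0.0679). A second probe set gave -2.63 and the other 2 gave 0.12 and 0.11. With Kcnma1 it made 2 of 22 potassium and sodium channel genes called (9.09%, median -0.33).

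Array 2 of the Ctm wild types was also the highest of the 3 for Phxr4 (-1.90) and for Kcnq1ot1 (-1.69), an imprinted noncoding RNA, with 3.66, 4.73 and 3.36. This order differs from that of Sycp1 and Atrx, where array 1 was the highest. Snhg14, the host of small nucleolar RNAs of an imprinted region, differed by -2.17 (SE 0.41, adjusted p = 0.0168). It read 7.57, 6.45 and 5.94 in Ctm wild types and 7.52, 6.81 and 7.05 in 118Q knock-ins. Its Ctm effect was 1.55, and its 118Q effect of -0.62 did not pass the test (adjusted p = 0.307). Other probe sets of Snhg14 gave Ctm effects of 1.79 and 1.27 and 118Q effects of 0.26 and 0.26. Zbtb20, a zinc finger transcription factor, differed by -1.65 (SE 0.28, adjusted p = 0.0145), and all 9 of its probe sets were negative, 6 of them past the test when every probe set was tested by itself.

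Cacnb4, the auxiliary beta subunit that pairs with Cav2.1 in the cerebellum, was the only one of 18 voltage-gated calcium channel genes called (5.56%, median -0.23). It read 8.50, 8.31 and 8.40 in 118Q knock-ins, 8.46, 8.78 and 8.90 in their wild types, 9.42, 9.39 and 9.51 in Ctm knockouts and 9.04, 8.98 and 8.72 in Ctm wild types. The 118Q groups overlapped, while every Ctm knockout array lay above its wild types. The difference of -0.84 (SE 0.18, adjusted p = 0.0239) combined a 118Q effect of -0.31 (adjusted p = 0.211) and a Ctm effect of 0.53 (adjusted p = 0.052), neither past the test. Its other probe sets gave -0.66 and -0.27.

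Slc29a1, a nucleoside transporter, differed by 1.02 (SE 0.24, adjusted p = 0.0352), with 3.86 to 4.27 in 118Q knock-ins, 3.36 to 3.75 in their wild types, 3.45 to 3.71 in Ctm knockouts and 3.96 to 4.38 in Ctm wild types. Neither line overlapped within itself, and the order was opposite in the 2 lines. Tmem176a, a membrane protein, differed by 1.01 (SE 0.25, adjusted p = 0.039), and was shared by several groups, with 118Q knock-ins 0.60 above the 11Q wild types and Ctm knockouts below them (-0.59). The Ctm knockouts read 2.49, 2.70 and 2.95.

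**Figure D4:**
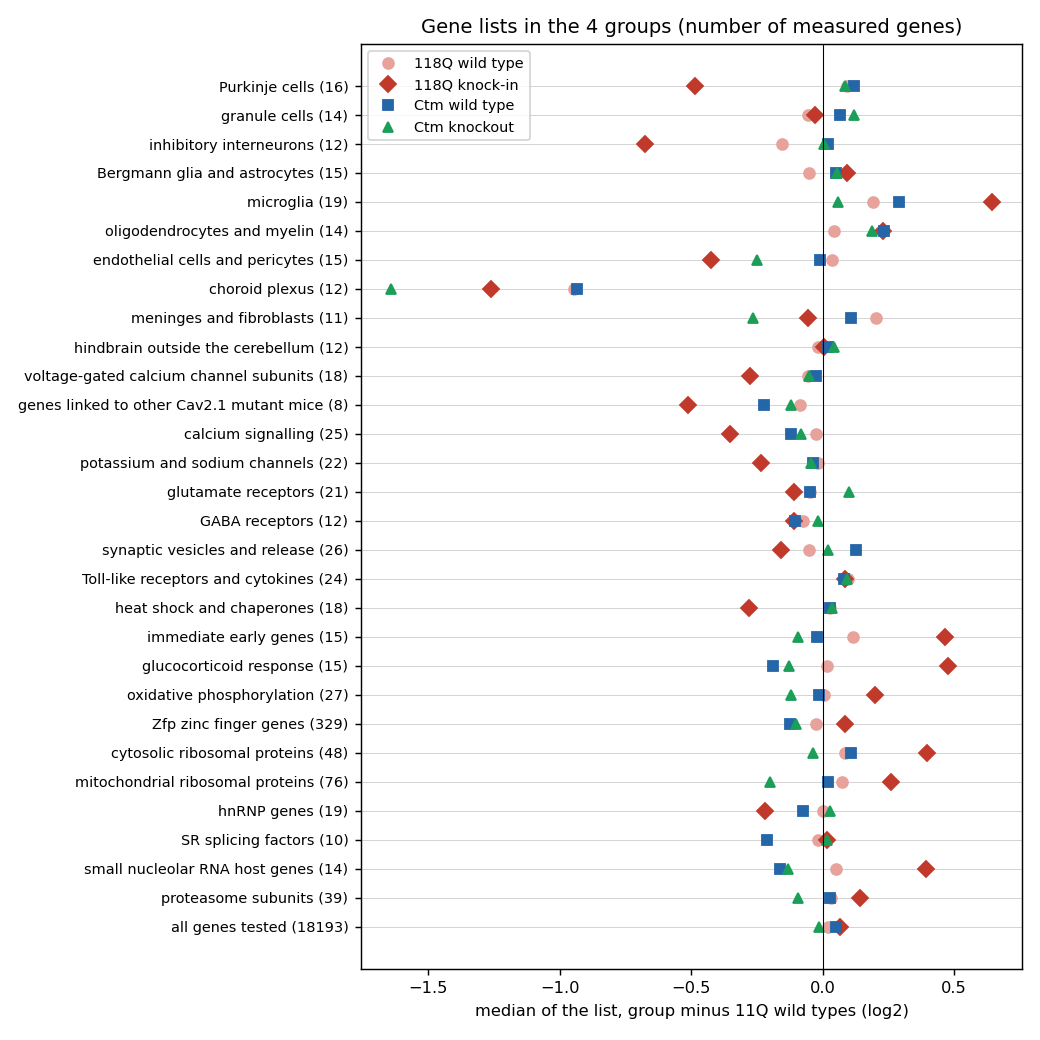
Median distance of each gene list from the 11Q wild types (log2, horizontal axis) in the 4 groups, with the number of measured genes of each list of at least 8 in brackets. The 118Q knock-ins lie farthest from 0 among the 4 groups for inhibitory interneurons (-0.68), Purkinje cells (-0.49), endothelial cells and pericytes (-0.42), immediate early genes (0.46), glucocorticoid response (0.48), microglia (0.64) and cytosolic ribosomal proteins (0.40), among others, and all 4 groups lie below 0 for choroid plexus, where the 11Q wild types were high on all 3 arrays.

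Several lists held 0 called genes. Among cell types these were granule cells (14 genes, median -0.07), inhibitory interneurons (12 genes, median -0.51), Bergmann glia and astrocytes (15 genes, 0.04), oligodendrocytes and myelin (14 genes, 0.29), endothelial cells and pericytes (15 genes, -0.27), choroid plexus (12 genes, 0.48), meninges and fibroblasts (11 genes, 0.05), hindbrain outside the cerebellum (12 genes, 0.09) and red blood cells (4 genes, 0.04). The interneuron list had its mean level at 6.44, 5.79 and 6.01 on 118Q knock-in arrays and 6.41 to 6.77 on the other 9 arrays. Among functional lists these were genes linked to mice with other Cav2.1 mutations (8 genes, -0.62), GABA receptors (12 genes, -0.14), synaptic vesicles and release (26 genes, -0.05), Toll-like receptors and cytokines (24 genes, 0.02), immediate early genes (15 genes, 0.29) and glucocorticoid response (15 genes, 0.58). In the last, 14 of 15 genes had a positive value, beside 11460 of all 18193.

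Called genes differed in length by the sign of their difference. The median gene length was 20.3 kb over all genes tested (quartiles 7.95 and 50.5), 7.31 kb for positive genes and 89.4 kb for negative genes. It was 6.38 kb for positive genes assigned to the 118Q knock-ins and 7.8 kb for positive genes shared by several groups. For negative genes it was 179 kb for the 118Q knock-ins, 69.9 kb for the Ctm wild types and 92.2 kb for those shared by several groups. The negative genes assigned to a mutant group and those assigned to a control group thus both had medians above the upper quartile of all genes. Called genes were also brighter, with a median level of 5.51 for positive and 6.38 for negative genes against 3.86 for all genes tested, and these lengths are not adjusted for level. The RNA quality measure was 0.41 to 0.47 in 118Q knock-ins and 0.50 to 0.61 in their wild types. It was 0.56 to 0.71 in Ctm knockouts and 0.55 to 0.66 in their wild types. Its part in the length pattern was not tested.

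**Figure D5:**
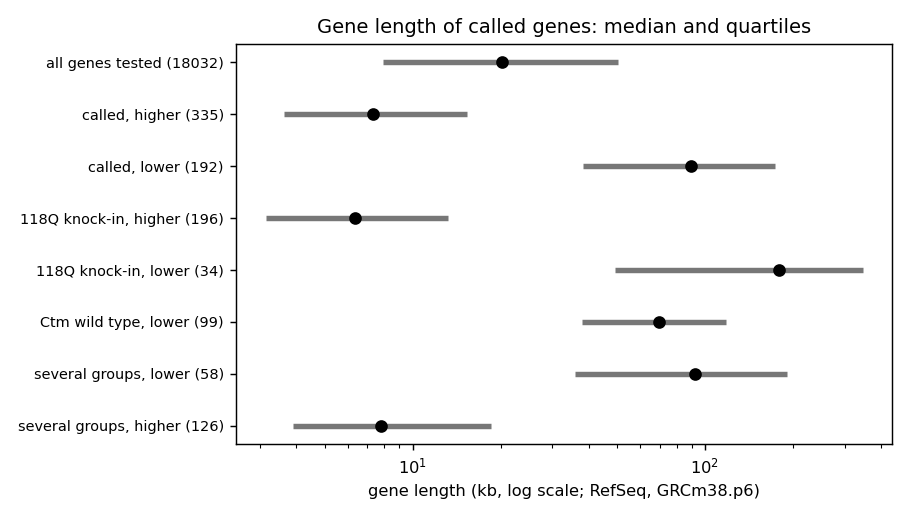
Median gene length (points) and quartiles (bars) in kb on a log axis, from RefSeq GRCm38.p6, for all genes tested and for called genes by sign and assigned group, with the number of genes that have a length in brackets. Positive sets have medians of 6.38 to 7.8 kb and negative sets 69.9 to 179 kb.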

How the data were processed

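The members, gene lists and naming rule were chosen with earlier results of these data known. The deposited values are log2 expression per probe set, made by the authors with RMA per the submitters' processing notes (version not given in the sources used here). The zero point of the scale is not stated, so changes in dim genes depend on it. Of 45101 probe sets, 34945 with a single gene symbol were used; among several for a gene (9010 of 18193 genes) the brightest on average over the 18 arrays was taken. No filter on dim genes was applied.

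Contrasts were fitted in R 4.3.3 with limma 3.58.1 (a mean for each group, 18 arrays, lmFit and eBayes, 12 residual and 5.98 prior degrees of freedom), two-sided, with Benjamini-Hochberg adjustment over all genes and a threshold of 0.05. SE is the standard error of that fit. Every adjusted p in the text is from this fit. The code was tested on simulated data. Array number limits precision. The rule for named genes took, among called genes, the 12 largest positive and 12 largest negative differences, the 5 smallest p assigned to each group, up to 3 members of each of 30 lists (910 of 952 entries measured) by smallest p, and Cacna1a and Cacnb4 in any case. Predicted or sex-linked loci, 33 of the called genes, were counted and not named, except where stated. Gene lengths, gene order and promoters came from RefSeq (GRCm38.p6).

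Alternatives were other probe set choices, omission of the dimmer 50% of genes, trend and robust settings, array weights, quantile normalization, covariates for RNA quality and choroid plexus, a replicate block, the 12 arrays alone, a 1.5-fold threshold, other references for the assignment and omission of each array. Replicate numbers did not pair the arrays.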

Additional observations from a re-analysis of the deposited data

Results flagged for a closer look

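Each named gene below had a 118Q effect and a Ctm effect that differed by the test of the difference itself, which was positive for 335 and negative for 198 genes in all. Values in brackets are the log2 difference, 118Q effect minus Ctm effect, with 3 arrays per group. Assigned to high 118Q knock-ins were S100a8 (1.55), Cenpb (1.47), Cd68 (1.45), Tyrobp (1.44), S100a1 (1.16), C1qb (1.10), Cyba (0.98), Enho (0.94) and Rpl41 (0.80). Further members were Rps18 (0.78), Trem2 (0.78), Snhg10 (0.74), Rps27 (0.71), Mrpl4 (0.69) and Ndufs4 (0.57). Assigned to low 118Q knock-ins were Shisa6 (-1.39), Gria3 (-1.25), Slc1a6 (-1.01), Stk17b (-0.93), Atp2a2 (-0.77), Hsp90aa1 (-0.72) and Hspa4 (-0.63). Assigned to low Ctm wild types were Ftx (-2.07), Gucy1a2 (-2.01), Sycp1 (-2.00), Nbeal1 (-1.96), Zfp182 (-1.89), Atrx (-1.78), Ccdc88a (-1.66), Slc8a1 (-1.59) and Unc80 (-1.45). Further members were Taf15 (-1.39), Gria2 (-1.19), Smg1 (-1.16), Zfp638 (-1.11), Jmjd1c (-1.04), Eea1 (-1.04) and Hnrnph1 (-0.73). Assigned to low Ctm knockouts were Gadd45gip1 (1.34), Rasd2 (1.26), Mri1 (1.12), Serhl (0.79), Gucd1 (0.74) and Eef1aknmt (0.74). Assigned to the Ctm knockouts, through an offset shared with their wild types, was Kcnma1 (-1.01). Positive and shared by several groups were Slc29a1 (1.02), Zfp213 (1.02), Tmem176a (1.01), Zfp560 (0.93), Mrpl57 (0.90), Snhg3 (0.71), Psmb10 (0.66), Mrps7 (0.66), Sdhb (0.52) and Psmb6 (0.49). Negative and shared by several groups were Fgf14 (-2.95), Snhg14 (-2.17), Phxr4 (-1.90), Kcnq1ot1 (-1.69), Zbtb20 (-1.65), Cacnb4 (-0.84), Srsf1 (-0.75) and Plcb4 (-0.71). Mrpl57 and the predicted locus 4932438A13Rik (-1.03) were the only genes with both effects past the threshold, with opposite signs.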

How the results depend on the processing

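The sign of the difference was kept for all 533 called genes under each alternative fit in which they were tested, and no named gene changed sign. Trend and robust settings, the 1.5-fold threshold, the replicate block and the 12 arrays alone leave differences of group means unchanged. So does leaving out the dimmer 50% of genes. In these fits the sign could not change. Nor could it for named genes where every probe set was tested by itself. Named genes were followed on their brightest probe set, except where probe sets were averaged. Some other probe sets had the opposite sign, as in Gadd45gip1, Mri1 and Zfp560, though most did not. With the dimmer 50% of genes left out, the difference was called for 1061 genes, the 118Q effect for 567 and the Ctm effect for 307, with 434, 1, 38, 198 and 390 genes assigned to 118Q knock-ins, 118Q wild types, Ctm knockouts, Ctm wild types and several groups. In the same order array weights gave 1893, 1740 and 627, with 730, 4, 118, 314 and 727. The RNA quality covariate gave 67 for the difference and 37 for the 118Q effect, with 20 genes assigned to 118Q knock-ins, 1 to Ctm knockouts, 17 to Ctm wild types and 29 to several groups. The 12 arrays alone gave 81, 102 and 34, with 26, 3, 21 and 31 in that order. Without Ctm wild-type arrays 2 and 3, chosen after the data were seen, the counts were 6, 176 and 4, with 0, 0, 1 and 5 assigned. Trend and robust settings called 424 genes in the 118Q effect, and the 1.5-fold threshold 147. Every probe set by itself gave 320 in the Ctm effect. The choroid plexus covariate assigned 30 genes to Ctm knockouts. All 6 arrays of the 11Q line as the reference assigned 7 genes to Ctm knockouts, and the mean of the other 3 groups assigned 97 to 118Q knock-ins, 63 to Ctm wild types and 361 to several. The cause of these changes was not tested, except that fewer genes, arrays or degrees of freedom follow from how some of these fits are built.

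Leaving out each array in turn gave 24 to 1021 genes for the difference, 2 to 941 for the 118Q effect and 1 to 447 for the Ctm effect. Assigned were 8 to 628 genes to 118Q knock-ins, 0 to 1 to 118Q wild types, 1 to 16 to Ctm knockouts, 4 to 293 to Ctm wild types and 11 to 280 to several groups. With the replicate number as a block the difference was called for 433 genes, 404 of them among the 533, and it ended the call of 7 named genes. Deviations of same-numbered arrays correlated between -0.315 and 0.229, and those of other arrays between -0.289 and 0.283, so the numbers gave no pairing.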
